A study of Mus musculus with 12 samples.

Results

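The 49 genes described here encode proteins that license replication origins, unwind and copy DNA, supply nucleotides and drive cells into S phase. They were taken by name and not by a threshold on a measured value, although with earlier results of these data known, and all 49 were found among the 34102 genes of the count table. The label was checked against the function of each listed gene, and every member is a known DNA replication or S phase gene.

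The study addressed Srsf10, a splicing factor, in the developing mouse neocortex and in cultured neural progenitor cells, by bulk RNA-seq of total RNA. NPC_KD libraries (n = 3) came from primary cultured progenitors of C57BL/6 cortex, labelled with the genotype SRSF10 knockdown and grown with bFGF and EGF. NPC_Ctrl libraries (n = 3) came from the same kind of culture with the genotype WT. The labels give both progenitor groups 1 protocol, a lentivirus at a multiplicity of infection of 30 and RNA taken 72 h after infection, and name a virus for the knockdown but none for the controls. The cortex_cKO libraries (n = 3) came from cortex of C57BL/6 mice that were Srsf10 flox/flox and carried Nestin-Cre, which drives recombination in neural precursors and their descendants. The cortex_Ctrl libraries (n = 3) came from Srsf10 flox/flox cortex without Nestin-Cre, so both cortex groups carry the floxed alleles and no group carries Cre alone. Age is not given in the labels, which also do not say whether each library is a separate animal or culture, so p-values measure the spread between these libraries. In fits with the replicate number as a block, they measure the spread left once differences between the numbers are removed.

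Each cell copies its genome once per cycle. In G1 the origin recognition complex, Cdc6 and Cdt1 load the MCM helicase on origins, and at S phase entry kinases and the Cdc45 and GINS factors activate it so that polymerases, the sliding clamp and its loader can follow. Many of these genes are transcribed by E2F factors at the boundary of G1 and S phase, and in the embryonic cortex they mark dividing precursors near the ventricle.

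Libraries held 26074094 to 30608918 counts in progenitors and 32560159 to 36713205 in cortex. Levels are given as counts-per-million (CPM), scaled by TMM over the 12 libraries. Progenitor libraries had 1938 to 2510 CPM of Nes, a progenitor filament gene, and 8.93 to 13.9 CPM of Tubb3, a neuronal tubulin gene, whereas cortex libraries had 127 to 136 CPM of Nes and 1917 to 2588 CPM of Tubb3. In NPC_Ctrl against cortex_Ctrl, edgeR called 6 of 8 radial glia markers higher and 2 lower, and 8 of 8 neuron markers lower. Among all genes 38.4% were higher and 40.5% lower. Map2, of the neuron list, still averaged 1066.5 CPM in NPC_Ctrl, against 1556.1 CPM in cortex_Ctrl. Olig1 and Olig2, of the oligodendrocyte list, averaged 1687 and 1080 CPM in NPC_Ctrl, against 77.7 and 34.1 CPM in cortex_Ctrl. Srsf10 itself was 240.5, 224 and 220.5 CPM in NPC_KD replicates 1, 2 and 3, against 253, 230.1 and 227 CPM in the NPC_Ctrl replicates. That is a log2 difference of -0.05 ± 0.05 (SE) with a 95% interval from -0.15 to 0.06 (edgeR, adjusted p = 0.53), so a fall beyond the spread was not seen. In cortex_cKO it was 219.6, 185 and 217 CPM, against 196, 215 and 201 CPM in cortex_Ctrl, a log2 difference of 0.03 ± 0.08 with an interval from -0.15 to 0.21 (adjusted p = 0.92). Whether a floxed exon was lost cannot be read from a gene-level count. Every direction below therefore rests on the labels, and fewer cells of a type and less RNA per cell cannot be told apart in these bulk libraries.

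Promoter sequences are shown because the members moved together and E2F factors act through a short element there. RefSeq (GRCm38.p6) gave promoters, from 250 bases before to 50 bases after an annotated start, for 40 of the 49 genes, 47 promoters in all. Pole, Gmnn, Ccne2, Mcm4, Rfc2, Gins1, Prim2, Gins2 and Gins4 had no entry in the table used. The element searched was TTT, then any pair of letters each C or G, then CGC, on both strands, and matches that overlap, as TTTGGCGC and GCGCGAAA do in Mcm6, were counted separately. It was present in 17 of the 40 genes (42.5%), against 704 of the 27025 symbols of the promoter table (2.6%). CCAAT, the letters that the factor NF-Y binds, was present on either strand in 27 of 40 (67.5%), against 41.1% of symbols. Both were present in 13 genes and neither in 9. A gene with several promoters was counted when any of them held the letters, among the members and in the whole table. A match here is a string of letters and no evidence of a bound factor.

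The promoters of Mcm6, a helicase subunit, and Pola1, the catalytic subunit of the polymerase that makes the first stretch of DNA, are printed up to the annotated start, because both hold the element and both differed between the systems in every fit that left out 1 library. Rrm2 differed in every such fit too, and its promoter holds no match. The 4 further stretches of 30 bases hold matches in other genes whose effect differed between the systems. Of these genes, Uhrf1 and Dnmt1 also have promoters that hold no match. Capitals mark the E2F element, and all lines read 5′ to 3′ along the strand of the gene.
Mcm6 (chr1:128359706-128359955, minus strand): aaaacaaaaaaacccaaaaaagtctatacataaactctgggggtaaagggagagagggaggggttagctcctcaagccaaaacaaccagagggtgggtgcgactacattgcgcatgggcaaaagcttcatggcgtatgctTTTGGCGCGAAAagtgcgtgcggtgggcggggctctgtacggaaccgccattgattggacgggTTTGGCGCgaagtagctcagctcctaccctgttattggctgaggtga
Pola1 (chrX:93632156-93632405, minus strand): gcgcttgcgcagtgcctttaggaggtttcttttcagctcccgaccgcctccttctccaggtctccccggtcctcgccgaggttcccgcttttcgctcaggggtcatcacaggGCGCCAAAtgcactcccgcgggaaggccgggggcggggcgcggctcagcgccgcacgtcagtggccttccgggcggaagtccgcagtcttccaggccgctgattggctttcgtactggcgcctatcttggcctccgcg
Uhrf1 (chr17:56304117-56304146, plus strand): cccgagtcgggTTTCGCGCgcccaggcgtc
Clspn (chr4:126556990-126557019, plus strand): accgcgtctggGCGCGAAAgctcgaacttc
Mcm5 (chr8:75109345-75109374, plus strand): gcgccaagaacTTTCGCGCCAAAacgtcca
Dnmt1 (chr9:20952824-20952853, minus strand): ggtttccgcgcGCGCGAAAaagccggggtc
In Mcm6 the element lies at positions -110 to -99, where it reads as an overlapping pair of matches, and again at -47 to -40, counted from the annotated start. In Pola1 it lies at -138 to -131.

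The knockdown comparison asked how progenitors labelled NPC_KD differed from NPC_Ctrl. Taken as same-numbered pairs, 44 of the 49 genes rose and 0 fell, at an adjusted p under 0.05 in the quasi-likelihood test of edgeR with the replicate number as a block. Among all 14258 genes tested, 11.9% were called higher and 12.8% lower. No member was lower at an unadjusted p under 0.05 (17.8% of all genes), and DESeq2 with the block called 0 lower (9.87%). The changes were modest, with a median log2 fold change of 0.40 over the members and 0.0033 over all genes, and a range of -0.13 to 0.69. Values were positive for 46 members, against 50.7% of all genes. The median over members was 0.26 in pair 1, 0.36 in pair 2 and 0.55 in pair 3.

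**Figure D1:**
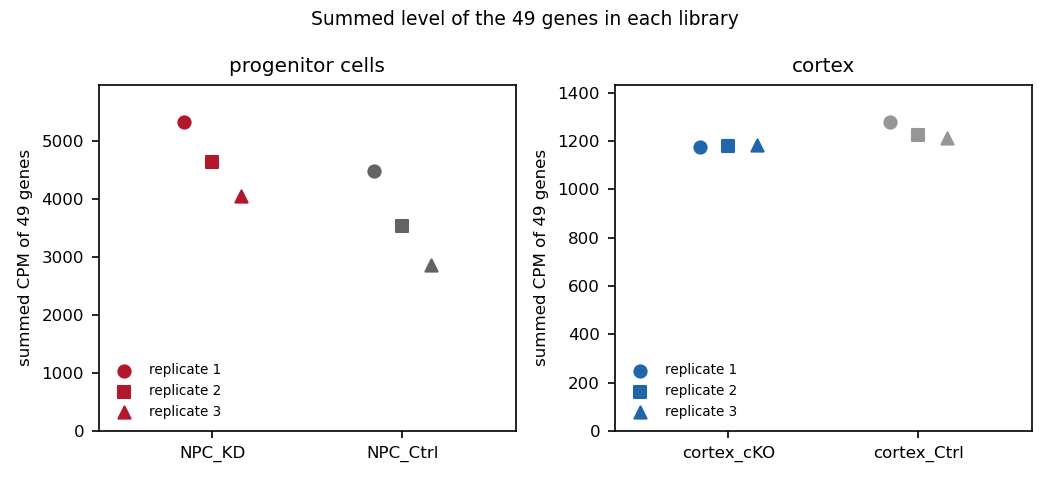
Summed CPM of the 49 genes (vertical axes, from 0) in each library of NPC_KD and NPC_Ctrl progenitors (left) and of cortex_cKO and cortex_Ctrl cortex (right), one symbol per replicate number. In progenitors each NPC_KD library lies above the NPC_Ctrl library of its number, while NPC_KD replicate 3 lies below NPC_Ctrl replicate 1.

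The rise rests on the pairing. The summed level of the members was 5335, 4643 and 4050.1 CPM in NPC_KD replicates 1, 2 and 3, against 4483, 3527 and 2859.9 CPM in NPC_Ctrl. Within each number NPC_KD was higher, yet the groups overlap, because NPC_KD replicate 3 lies below NPC_Ctrl replicate 1. The same held gene by gene: 45 members were higher in 3 of 3 pairs (27.2% of all genes were), while 41 were lower in NPC_KD replicate 3 than in NPC_Ctrl replicate 1. Groups without overlap were found for 7 members, all higher in NPC_KD (10.6% of all genes), and these were Rrm2, Ccne1, Ccne2, Prim1, Rpa2, Rfc1 and Gins3. Replicate 1 was the highest control for 48 members and replicate 3 the lowest for 49, so nearly the whole set shares this order. Shares of all genes were not computed for this order, nor for NPC_KD replicate 3 below NPC_Ctrl replicate 1. Neither can therefore be called particular to the members. Without the block, edgeR called 0 members (0.351% of all genes higher and 1.54% lower), 13 were higher at an unadjusted p under 0.05 (8.41% of all genes), and the median was 0.39. DESeq2 called 42 members with the block (9.06% of all genes) and 6 without it (3.01%), which were Rrm2, Ccne2, Prim1, Rpa2, Ccne1 and Rfc1. Leaving out pair 3 left 28 called, leaving out pair 2 left 39 and leaving out pair 1 left 44. Shares of all genes are not given for each of these fits, but 28 members were called in all 3, as were 4.59% of all genes. The 16 lost without pair 3 were Orc1, Orc6, Cdt1, Gmnn, Mcm3, Mcm7, Cdc45, Gins1, Prim2, Pole2, Rpa1, Tyms, Dut, E2f1, E2f7 and Slbp. Of these, Orc6, Prim2, Rpa1, Dut and Slbp were lost without pair 2 too, and Pole2 without pair 1.

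**Figure D2:**
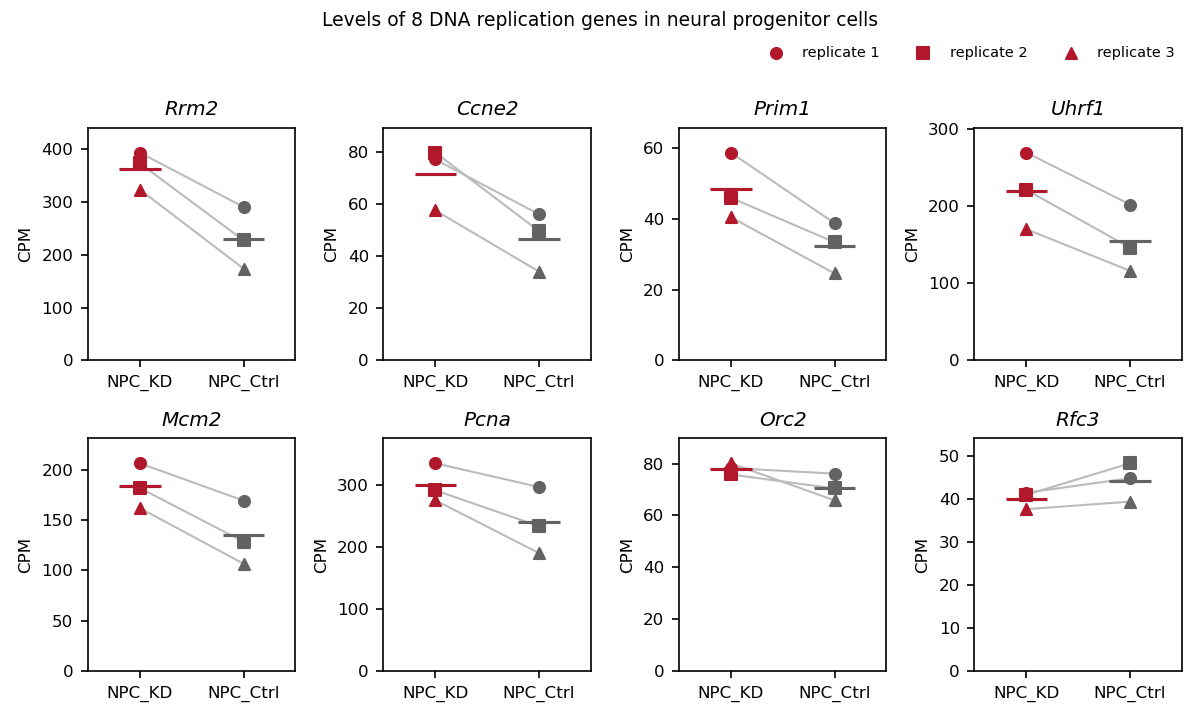
CPM (vertical axes, from 0) of 8 genes in NPC_KD and NPC_Ctrl progenitors, with lines joining libraries of the same replicate number and bars at the group means. Rrm2, Ccne2, Prim1, Uhrf1, Mcm2 and Pcna are higher in NPC_KD in every pair, Orc2 is so by small steps, and Rfc3 is lower in NPC_KD in every pair.

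Genes of S phase entry and of nucleotide supply had the largest median changes of the 7 roles. All 5 nucleotide genes rose, with a median log2 fold change of 0.46. Rrm2, the regulated subunit of ribonucleotide reductase, had 394, 374 and 324 CPM in NPC_KD, against 291, 228 and 174 CPM in NPC_Ctrl. Every NPC_KD library was above every control, and the log2 fold change was 0.69 ± 0.07 (SE, adjusted p = 1.57e-05), a 1.61-fold rise. Rrm1, its partner subunit, rose by 0.48 ± 0.05, with 420.1, 366 and 324 CPM in NPC_KD, against 329.6, 259 and 217 CPM in NPC_Ctrl, where only NPC_KD replicate 3 fell below the highest control. Tk1, which salvages thymidine, rose by 0.46 ± 0.06, and Dut, which clears dUTP, by 0.27 ± 0.07. The smallest rise of the group was that of Tyms, which makes thymidylate, with 52.0, 42.8 and 42.6 CPM in NPC_KD, against 47.8, 37.5 and 31.2 CPM in NPC_Ctrl. Its groups overlapped, and its log2 fold change was 0.26 ± 0.07 (adjusted p = 0.0165, and 0.179 without pair 3).

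All 6 entry genes rose, with a median of 0.48. Ccne2, a cyclin E that activates Cdk2 at the start of S phase, had 77.0, 79.6 and 57.5 CPM in NPC_KD, against 56.0, 49.5 and 34.01 CPM in NPC_Ctrl. The lowest NPC_KD library was just above the highest control, and the log2 fold change was 0.64 ± 0.06 (adjusted p = 1.49e-05). For Ccne2, 17.42% of the exon length is shared with Ints8 on the other strand, and whether counting used strand is not known. Ccne1, the other cyclin E, had 46.0, 50.0 and 42.9 CPM in NPC_KD, against 38.5, 33.6 and 27.1 CPM in NPC_Ctrl. The groups did not overlap and the log2 fold change was 0.50 ± 0.08 (adjusted p = 0.000358). E2f8, a repressor of the E2F family made in S phase, had 53.9, 39.7 and 33.6 CPM in NPC_KD, against 38.3, 29.5 and 21.9 CPM in NPC_Ctrl. It rose by 0.52 ± 0.07 (adjusted p = 8.59e-05), although the groups overlapped. The activator genes E2f1 and E2f2 rose by 0.37 ± 0.08 and 0.47 ± 0.08, and E2f7, the other atypical repressor, by 0.34 ± 0.07 (adjusted p = 0.0035, and 0.0504 without pair 3).

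Among the 12 origin licensing genes, 11 rose, with a median of 0.41. Gmnn, the inhibitor that holds Cdt1 in check after origins fire, had 28.6, 23.8 and 21.3 CPM in NPC_KD, against 24.0, 15.3 and 13.4 CPM in NPC_Ctrl. Each pair was higher in NPC_KD with overlap between the groups, and the log2 fold change was 0.52 ± 0.09 (adjusted p = 0.00118); without pair 3 its adjusted p was 0.0504. Cdc6, which loads the helicase, had 43.8, 38.0 and 31.2 CPM in NPC_KD, against 36.7, 25.3 and 19.5 CPM in NPC_Ctrl, and rose by 0.51 ± 0.08 (adjusted p = 0.000522). Orc1, the large subunit of the origin recognition complex, rose by 0.52 ± 0.11, and Cdt1, the partner of Cdc6, by 0.41 ± 0.08.

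The 6 helicase subunits Mcm2 to Mcm7 rose in step but not by equal amounts. Mcm2 had 207, 182 and 162 CPM in NPC_KD, against 169, 129 and 107 CPM in NPC_Ctrl, a log2 fold change of 0.47 ± 0.06 (adjusted p = 9.27e-05). Mcm6 had 198, 174 and 153 CPM in NPC_KD, against 174, 135 and 107 CPM in NPC_Ctrl, a change of 0.36 ± 0.06 (adjusted p = 0.000694). In both genes NPC_KD replicate 3 lay below NPC_Ctrl replicate 1. Mcm5 rose by 0.45 ± 0.06, Mcm4 by 0.41 ± 0.06, Mcm3 by 0.31 ± 0.06 and Mcm7 by 0.25 ± 0.05. The other origin recognition subunits among the members moved least of the licensing genes: Orc6 rose by 0.21 ± 0.07 (adjusted p = 0.0483), and Orc2 was not called. Orc3, Orc4 and Orc5, which are not members, stood at -0.11, 0.06 and 0.18 and were not called. Orc2 had 78.3, 75.8 and 80.1 CPM in NPC_KD, against 76.1, 70.4 and 65.8 CPM in NPC_Ctrl, a difference of 0.15 ± 0.06 (adjusted p = 0.0851). Its exons share 29.82% of their length with Nif3l1, and without pair 1 its adjusted p was 0.00652.

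Of the 7 helicase activation genes, 6 rose. Gins1 changed most, with 21.7, 16.9 and 13.9 CPM in NPC_KD, against 16.8, 13.5 and 8.22 CPM in NPC_Ctrl, a log2 fold change of 0.48 ± 0.10 (adjusted p = 0.00417, and 0.0727 without pair 3). Gins2 and Gins3, of the same GINS complex, rose by 0.40 ± 0.07 and 0.47 ± 0.10, though 67.32% of the Gins2 exon length is shared with Gse1. Gins4, of the same complex, was not called. It had 25.4, 21.3 and 20.3 CPM in NPC_KD, against 25.9, 23.5 and 19.1 CPM in NPC_Ctrl, a difference of -0.02 ± 0.08 (95% interval -0.19 to 0.15, adjusted p = 0.88). Mcm10, which helps start unwinding, rose by 0.42 ± 0.07, Cdc45, the helicase partner of GINS, by 0.38 ± 0.08, and Cdc7, the kinase that fires origins, by 0.28 ± 0.06.

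All 7 polymerase and primase genes rose, with a median of 0.37. Prim1, the catalytic primase subunit, had 58.8, 46.0 and 40.5 CPM in NPC_KD, against 38.8, 33.4 and 24.6 CPM in NPC_Ctrl. The groups did not overlap, and the log2 fold change was 0.60 ± 0.07 (adjusted p = 3.45e-05). Pole, the catalytic subunit of the leading strand polymerase, had 112, 85.1 and 65.6 CPM in NPC_KD, against 83.3, 56.9 and 45.4 CPM in NPC_Ctrl, a rise of 0.52 ± 0.05 (adjusted p = 2.19e-05) with overlapping groups. Pola1 had 79.4, 76.1 and 67.4 CPM in NPC_KD, against 68.2, 56.1 and 45.8 CPM in NPC_Ctrl. Only NPC_KD replicate 3 fell below the highest control, and the rise was 0.41 ± 0.07 (adjusted p = 0.000536). Prim2, the large primase subunit, changed least, by 0.27 ± 0.07 (adjusted p = 0.00913, with 0.0567 without pair 2 and 0.11 without pair 3). Pold1, of the lagging strand polymerase, Pola2 and Pole2 rose by 0.32 ± 0.05, 0.31 ± 0.06 and 0.37 ± 0.11.

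The clamp, clamp loader and single-strand binding genes were the least uniform, with 5 of 8 called higher. Rpa2, a subunit of the complex that coats single-stranded DNA, had 73.1, 64.6 and 59.9 CPM in NPC_KD, against 54.8, 46.5 and 36.8 CPM in NPC_Ctrl. The groups did not overlap and the log2 fold change was 0.53 ± 0.06 (adjusted p = 6.48e-05). Rpa1, its large partner, rose by 0.22 ± 0.05. Pcna, the sliding clamp, had 335, 291 and 275 CPM in NPC_KD, against 297, 234 and 190.1 CPM in NPC_Ctrl, a rise of 0.35 ± 0.06 (adjusted p = 0.00119) with overlapping groups; the pseudogenes Pcna-ps1 and Pcna-ps2 could share reads with it.

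The 5 subunits of the clamp loader split. Rfc4 and Rfc1 rose by 0.46 ± 0.07 and 0.39 ± 0.05. Rfc2, Rfc5 and Rfc3 were not called, with differences of 0.13 ± 0.06 (adjusted p = 0.13), -0.03 ± 0.07 (0.83) and -0.13 ± 0.06 (0.15). Rfc3 had 41.6, 41.1 and 37.7 CPM in NPC_KD, against 44.9, 48.4 and 39.5 CPM in NPC_Ctrl, and was the one member lower in all 3 pairs. Rfc5 had 41.8, 33.2 and 31.0 CPM in NPC_KD, against 44.1, 36.9 and 28.1 CPM in NPC_Ctrl, lower in pairs 1 and 2 and higher in pair 3. The Rfc3 promoter holds the E2F element and the Rfc5 promoter holds neither set of letters. Exon length shared with another gene is 15.1% for Rfc2, 12.65% for Rfc4 and 10.69% for Rfc5.

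All 4 genes of chromatin copying, histone mRNA and checkpoint rose. Uhrf1, which brings the maintenance methyltransferase to newly copied DNA, had 269.5, 221 and 170.2 CPM in NPC_KD, against 202, 146 and 116 CPM in NPC_Ctrl. Each pair was higher in NPC_KD with overlap between the groups, and the rise was 0.53 ± 0.05 (adjusted p = 1.12e-05). Clspn, an adaptor of the replication checkpoint, rose by 0.43 ± 0.06, and Dnmt1, the methyltransferase itself, by 0.31 ± 0.05. Slbp, which binds the stem-loop of histone mRNA, changed least, by 0.22 ± 0.06 (adjusted p = 0.0132, with 0.163 without pair 2 and 0.114 without pair 3), with 82.5, 80.2 and 69.3 CPM in NPC_KD, against 77.1, 65.3 and 58.9 CPM in NPC_Ctrl.

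**Figure D3:**
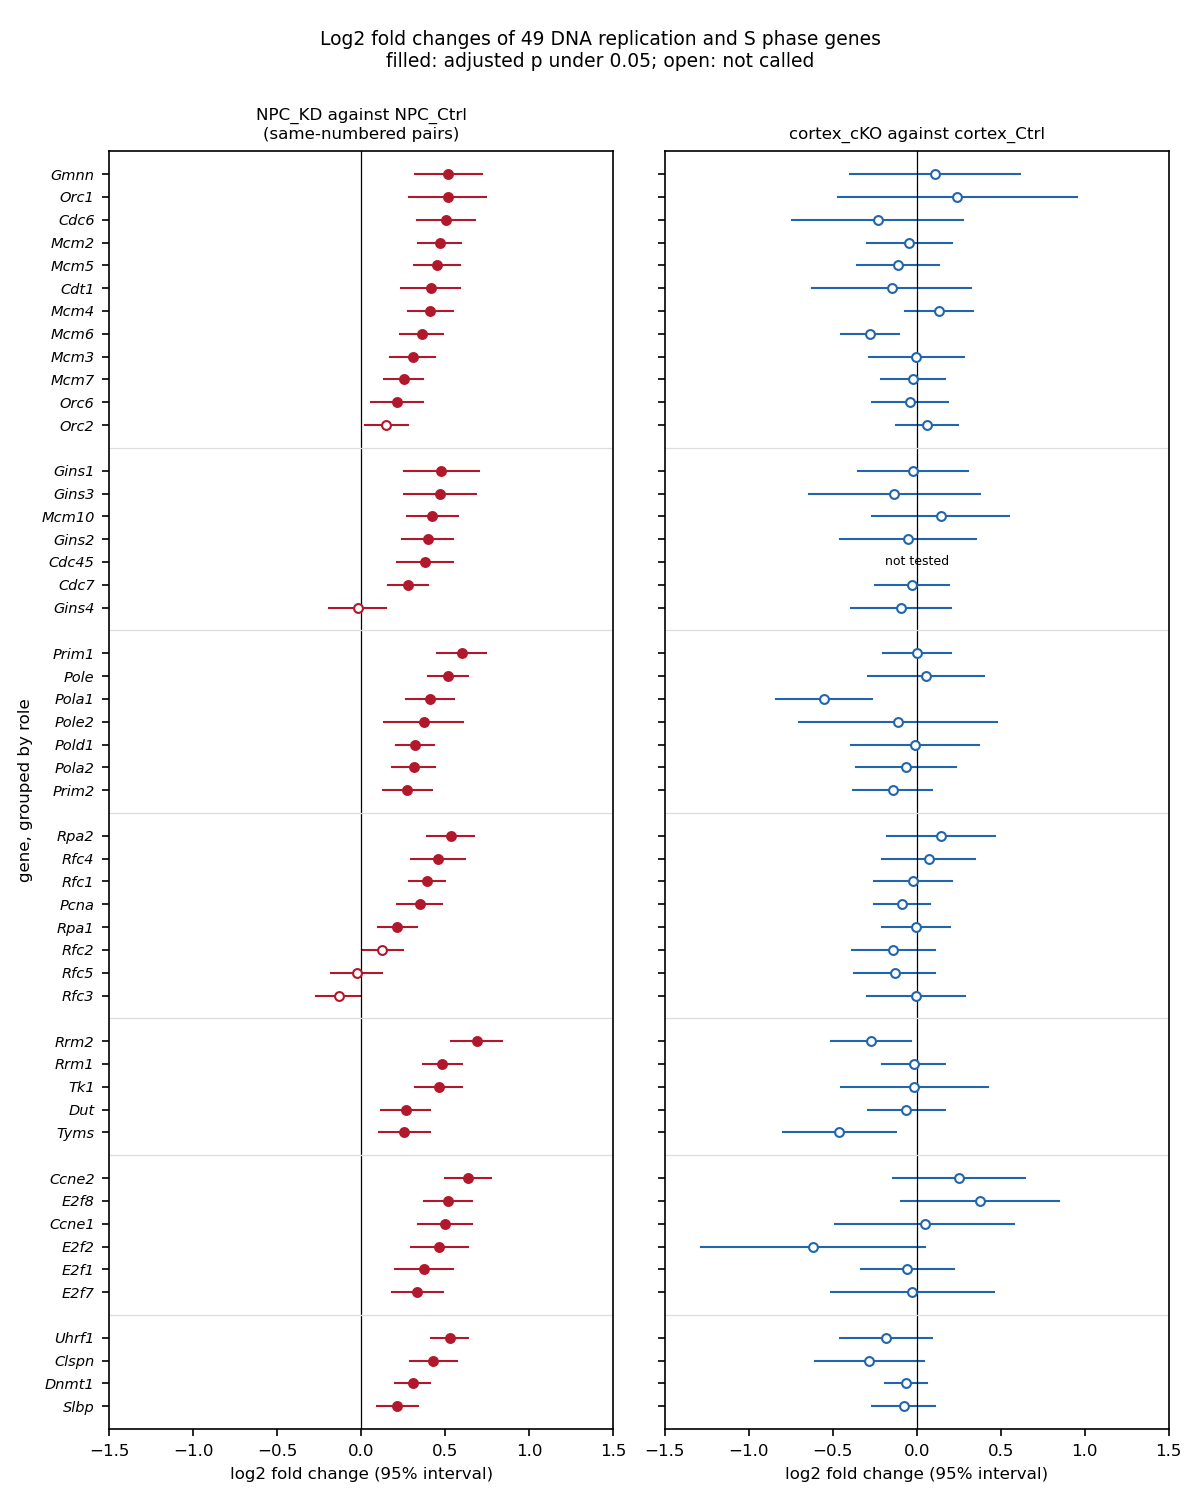
Log2 fold change (horizontal axes) with its 95% interval for the 49 genes, ordered within 7 roles, for NPC_KD against NPC_Ctrl (left) and cortex_cKO against cortex_Ctrl (right); filled points have an adjusted p under 0.05. On the left 44 points are filled and lie right of 0, and on the right none is filled.

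Many genes next to the members in the cell cycle moved with them, where 11.9% of all genes were called higher and 12.8% lower with the block. Of 31 other replication factors 18 rose and 0 fell, with a median of 0.26, led by Atad5, which unloads the clamp (0.70 ± 0.06), Ticrr, which helps recruit Cdc45 (0.52 ± 0.07), and Timeless, of the fork protection complex (0.46 ± 0.06). Of 10 other nucleotide genes 7 rose, with a median of 0.23. All 16 G2 and mitosis genes rose, with a median of 0.51, led by the mitotic kinesin gene Kif20a (0.72 ± 0.06). Their summed level was 3916, 2952 and 2519 CPM in NPC_KD, against 2889, 2091 and 1649 CPM in NPC_Ctrl, the same pattern over replicates as in the members. Without the block 0 genes of these 3 lists were called.

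The 14 other G1/S control genes were mixed, with 6 higher (11.9% of all genes), 2 lower (12.8% of all genes) and a median of 0.02. Rb1, the retinoblastoma protein that holds E2F factors in check, had 50.4, 43.9 and 48.8 CPM in NPC_KD, against 81.7, 74.7 and 88.4 CPM in NPC_Ctrl. The groups lay far apart, the log2 fold change was -0.77 ± 0.06 (adjusted p = 1.44e-06), and Rb1 was called without the block too (adjusted p = 0.00907). E2f4, a repressive E2F, fell by 0.23 on the log2 scale (adjusted p = 0.0154 with the block and 0.167 without). Other repressors of this list went up. Rbl1, of the family of Rb1, rose by 0.44 ± 0.06 (adjusted p = 8.98e-05 with the block and 0.257 without). E2f6, another repressive E2F, rose by 0.25 ± 0.05 (adjusted p = 0.00394 with the block and 0.135 without). Ccna2, the S phase cyclin A, rose by 0.45 ± 0.06.

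Of 65 markers of cell types 46 passed the filter on low counts in progenitors, and 5 rose and 8 fell with the block, where 11.9% of all genes were called higher and 12.8% lower. Without the block 1 of them was called, the vessel gene Flt1, with 6.74, 5.38 and 7.91 CPM in NPC_KD, against 15.7, 11.6 and 17.2 CPM in NPC_Ctrl (log2 fold change -1.14 ± 0.10, adjusted p = 5.29e-06 with the block and 0.0387 without). Of 8 radial glia markers 1 rose (Nes, by 0.21) and 2 fell, Hopx, with a log2 fold change of -0.85 ± 0.12, and Sox2, a progenitor transcription factor gene, with 247, 199.7 and 189 CPM in NPC_KD, against 308, 291 and 299 CPM in NPC_Ctrl. The summed radial glia level was 10340.0 to 12332 CPM in NPC_KD and 10631 to 11104 CPM in NPC_Ctrl. Of 5 astrocyte markers 3 rose and 1 fell, with Gfap at -0.73 ± 0.18 and S100b and Aqp4 both at 0.63, and their sum was 823 to 1091 CPM in NPC_KD, against 699.97 to 801 CPM in NPC_Ctrl. Of 8 neuron markers 1 fell, and their sum was 1099 to 1371 CPM in NPC_KD, against 1053 to 1159 CPM in NPC_Ctrl. Map2 makes up most of this total and was not called (0.15 ± 0.05, adjusted p = 0.0532). Without Map2 the direction was the other way, with a sum of 38.2 to 42.8 CPM in NPC_KD, against 45.4 to 48.0 CPM in NPC_Ctrl. The other calls were 1 each in the lists of intermediate progenitors (Btg2, 0.48 ± 0.06), interneurons (Gad2, -1.38 ± 0.41), the oligodendrocyte lineage (Pdgfra, -0.58 ± 0.10) and the meninges (Foxc1, -0.43 ± 0.09). These genes do not stand for their lists, whose tested genes had both signs. Values above and below 0 numbered 3 and 1 for intermediate progenitors and 2 and 2 for interneurons. They numbered 5 and 1 for the oligodendrocyte lineage and 3 and 1 for the meninges. Gad2 was low, at 0.198 to 0.924 CPM in NPC_KD and 1.21 to 1.58 CPM in NPC_Ctrl. The part of these marker differences in the change of the 49 genes was not tested.

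The cortex comparison asked how cortex_cKO differed from cortex_Ctrl. Here 48 members passed the filter on low counts and 0 were called, in either direction, by the test of edgeR on its 6 libraries. Among 15781 genes, 0.038% were called higher and 0.133% lower. Values were below 0 for 36 members and above 0 for 12, where 49.3% of all genes were below 0, and the median was -0.04 over the members and 0.0034 over all genes. At an unadjusted p under 0.05, 4 members were lower (5.53% of all genes) and 0 higher (5.36%). DESeq2 called 2 lower, Mcm6 and Pola1 (1.39% of all genes), and 0 higher (0.805%). The groups did not overlap for 6 members lower in cortex_cKO (8.78% of all genes), which were Mcm6, Pola1, Rfc5, Tyms, Dnmt1 and Clspn, and for 0 higher (8.52%). The summed level of all members was 1175, 1179.5 and 1182 CPM in cortex_cKO, against 1280.1, 1225 and 1212 CPM in cortex_Ctrl.

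Pola1 had 12.5, 14.1 and 10.1 CPM in cortex_cKO, against 17.6, 18.4 and 18.01 CPM in cortex_Ctrl. All 3 cortex_cKO libraries lay below all controls, and the log2 difference was -0.55 ± 0.13 (95% interval -0.84 to -0.27, adjusted p = 0.14). Mcm6 had 42.6, 45.0 and 43.6 CPM in cortex_cKO, against 52.9, 52.5 and 54.6 CPM in cortex_Ctrl. Replicates were tight in both groups, and the difference was -0.28 ± 0.08 (adjusted p = 0.20). Tyms had 9.15, 8.45 and 6.71 CPM in cortex_cKO, against 10.7, 12.2 and 10.6 CPM in cortex_Ctrl, a difference of -0.46 ± 0.15 (adjusted p = 0.30) with no overlap. Rrm2 had 34.1, 31.5 and 33.7 CPM in cortex_cKO, against 43.9, 42.3 and 34.4 CPM in cortex_Ctrl. Its lowest control was close to the cortex_cKO libraries, and the difference was -0.27 ± 0.11 (adjusted p = 0.39).

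The other genes followed through every comparison differed little in cortex. Mcm2 had 21.6, 20.6 and 17.6 CPM in cortex_cKO, against 22.4, 18.6 and 20.9 CPM in cortex_Ctrl, a difference of -0.04 ± 0.11 (95% interval -0.29 to 0.21) whose sign turned without cortex_cKO replicate 3 or cortex_Ctrl replicate 1. Pcna had 81.2, 75.8 and 83.1 CPM in cortex_cKO, against 90.5, 83.3 and 82.9 CPM in cortex_Ctrl, a difference of -0.09 ± 0.08 (95% interval -0.26 to 0.08). Ccne1 and Cdc6 were low, at 2.67 to 4.46 and 2.86 to 4.35 CPM in cortex_cKO and 3.11 to 3.97 and 3.64 to 4.29 CPM in cortex_Ctrl, and their intervals ran from -0.48 to 0.58 and from -0.74 to 0.28. E2f2 had the lowest value, -0.62 ± 0.30, from 58 to 116 counts in cortex_cKO libraries and 108 to 160 counts in cortex_Ctrl libraries. For the 43 members called in progenitors and tested in cortex, the progenitor value, taken without its own error, lay above the cortex interval for 34 genes and inside it for 9. These 43 were picked by their progenitor result, so the count is no test of a difference. Its share over all genes was not computed. The 9 were Orc1, Gmnn, Mcm10, Pold1, Pole2, Ccne1, Ccne2, E2f7 and E2f8, with group means of 1.37 to 10.1 CPM in cortex. Levels in that range occurred among the 34 too, as for Cdc6, with means of 3.38 CPM in cortex_cKO and 3.99 CPM in cortex_Ctrl.

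Some libraries and cell type markers stood apart in cortex. Ttr, a choroid plexus transcript, was 1038 CPM in cortex_cKO replicate 3 and 1173 CPM in cortex_Ctrl replicate 2, against 2.36 to 99.005 CPM in the other 4, and 0 members were called without those 2 libraries. Ddx3y, a Y-linked gene, was above 10 CPM in 1 of 3 cortex_cKO libraries and in 2 of 3 cortex_Ctrl libraries, so the sexes were not balanced. With sex as a covariate 0 members were called, and X-linked Pola1 stood at -0.61 (adjusted p = 0.227). All 7 interneuron markers were below 0 in cortex_cKO, with a median of -0.45 and a sum of 297 to 340.1 CPM in cortex_cKO and 385 to 434 CPM in cortex_Ctrl. None of them was called by edgeR, where 4 were lower at an unadjusted p under 0.05 (5.53% of all genes). DESeq2 called 3 of them lower (1.39% of all genes). Of the 6 oligodendrocyte lineage markers 1 was called, Gpr17, at 14.6 ± 1.26 CPM in cortex_cKO and 25.3 ± 1.16 CPM in cortex_Ctrl (SD, n = 3 each). All 6 meningeal markers were above 0, with a sum of 159 to 259 CPM in cortex_cKO and 27.7 to 236 CPM in cortex_Ctrl, and all 5 erythroid markers were below 0, with a sum of 8.22 to 15.5 CPM in cortex_cKO and 9.21 to 45.9 CPM in cortex_Ctrl; 0 of either list were called. Of the 8 radial glia markers 0 were called, with a sum of 1414 to 1469 CPM in cortex_cKO and 1448 to 1644 CPM in cortex_Ctrl. The 16 G2 and mitosis genes had a median of 0.07 with 10 above 0, and the 31 other replication factors a median of 0.0043, with 0 called in either list. The part of these markers in the values of the 49 genes was not tested.

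The difference between the systems was tested directly as the log2 fold change in progenitors minus that in cortex, in 1 fit of all 12 libraries with the progenitor pairs as terms. It was positive for 48 of the 49 genes (52.7% of all 16569 genes), with a median of 0.43 against 0.02 over all genes, and 12 members were called higher and 0 lower (2.41% and 2.64% of all genes). Pola1 differed by 0.98 ± 0.15 (adjusted p = 0.00374) and Rrm2 by 0.98 ± 0.14 (adjusted p = 0.0026), with the progenitor value above 0 and the cortex value below it in both. Tyms, Clspn and Uhrf1 differed by 0.73 ± 0.17, 0.73 ± 0.15 and 0.72 ± 0.13. Mcm6 differed by 0.65 ± 0.09 and had the smallest adjusted p of the members (0.00188). Prim1, Mcm5, Mcm2, Rrm1, Pcna and Dnmt1 followed at 0.61, 0.58, 0.53, 0.52, 0.45 and 0.38. Cdc6 (0.76 ± 0.22, adjusted p = 0.0715) and Ccne1 (0.47 ± 0.22, adjusted p = 0.28) were not called.

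**Figure D4:**
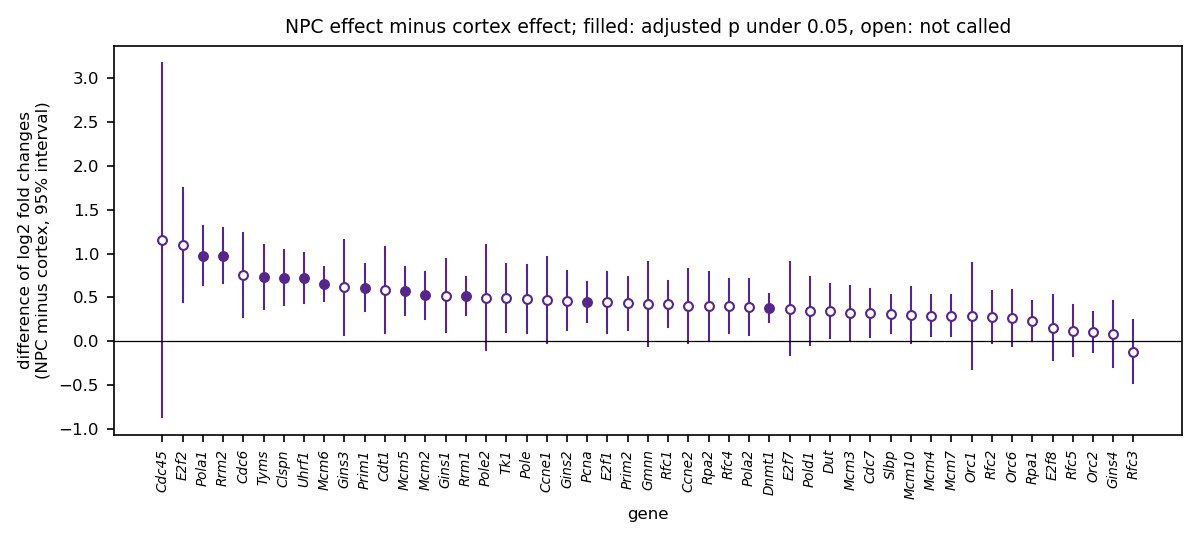
Log2 fold change in progenitors minus that in cortex (vertical axis) with its 95% interval for the 49 genes, ordered by size; filled points have an adjusted p under 0.05. Rfc3 alone lies below 0, and the widest interval belongs to Cdc45, which had 0 to 10 counts in cortex libraries.

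DESeq2 called 15 members higher (4.54% of all genes). Without the block the difference was called by edgeR for Pola1 alone (0.489% of all genes were called higher). Leaving out 1 library at a time left 4 to 14 members called, and 4 remained without replicate 2 or replicate 3 of NPC_KD or NPC_Ctrl. Leaving out either progenitor library of a number left the same members called, so these are not separate checks. Shares of all genes are not given for the fits without 1 library, so their counts cannot be called particular to the members. Pola1, Rrm2 and Mcm6 were called in every one of these fits. All 12 called genes have a promoter in the table, of which 6 hold the E2F element (Mcm6, Pola1, Uhrf1, Clspn, Mcm5 and Dnmt1) and 11 hold CCAAT. Over the 40 members with a promoter the shares were 42.5% and 67.5%. Rrm2, Tyms, Prim1, Mcm2, Rrm1 and Pcna were called and hold no match to the E2F element.

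The last comparison set control progenitors against control cortex, where culture, the infection protocol, cell makeup and division cannot be told apart. All 49 members were above 0 and 43 were called higher in NPC_Ctrl, 0 lower, where 38.4% of all genes were higher and 40.5% lower. The median log2 fold change was 1.64 over the members and -0.03 over all genes. S phase entry genes had the highest median (2.51), then origin licensing genes (2.37), and helicase activation genes the lowest (1.21) although they hold the widest value.

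Cdc45 had 971, 674 and 591 counts in NPC_Ctrl, against 4, 0 and 10 counts in cortex_Ctrl, and 1033, 1054 and 812 counts in NPC_KD, against 0, 6 and 2 counts in cortex_cKO. It was nearly absent from all 6 cortex libraries while its helicase partners were not, with Mcm2 at 18.6 to 22.4 CPM in cortex_Ctrl. The fitted log2 fold change was 7.64 ± 0.48, and it depends on the few cortex counts. Other large differences were those of Ccne1 (3.25 ± 0.17), E2f8 (3.202 ± 0.23), Tk1 (3.19 ± 0.26), Mcm10 (3.01 ± 0.24), Uhrf1 (2.98 ± 0.19), Mcm3 (2.91 ± 0.20) and Pold1 (2.79 ± 0.18). Mcm2, Cdc6, Rrm2, Pola1, Pcna and Mcm6 differed by 2.69, 2.75, 2.51, 1.64, 1.48 and 1.36.

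The 6 genes not called higher were Orc6, Prim1, Prim2, Cdc7, Gins4 and Gins1, with values of 0.18 to 0.44. Prim1 had 38.8, 33.4 and 24.6 CPM in NPC_Ctrl, against 28.8, 29.2 and 25.99 CPM in cortex_Ctrl, so the groups overlapped. Orc6 and Gins4 stood at 18.4 ± 4.34 and 16.9 ± 2.57 CPM per kb of exon in NPC_Ctrl, against 16.0 ± 0.43 and 13.6 ± 1.53 CPM per kb in cortex_Ctrl (SD, n = 3 each). These 6 are not confined to 1 complex: 2 are primase subunits, 2 belong to the GINS complex, and the others are an origin subunit and a kinase.

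**Figure D5:**
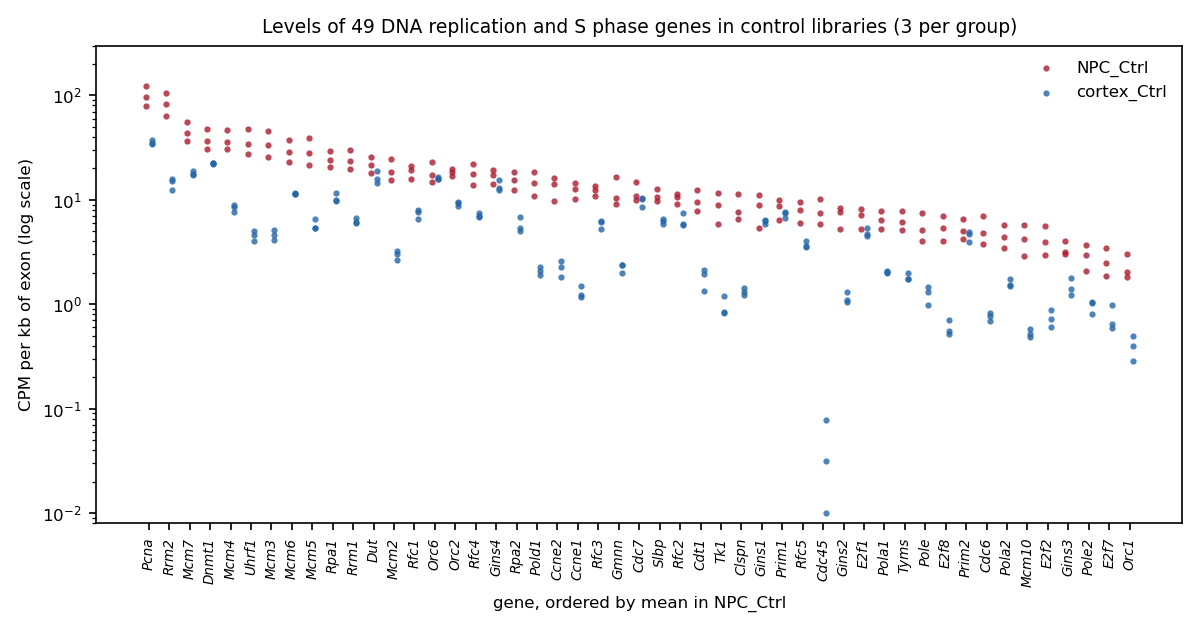
CPM per kb of exon (logarithmic vertical axis) of the 49 genes in the 3 NPC_Ctrl and 3 cortex_Ctrl libraries, ordered by the mean in NPC_Ctrl. Points of NPC_Ctrl lie above those of cortex_Ctrl for most genes, and the cortex_Ctrl library with 0 counts of Cdc45 is drawn at the 0.01 floor.

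On the scale of CPM per kb of exon, levels in NPC_Ctrl spanned 2.30 for Orc1 to 100.1 for Pcna. The length counts each annotated exon base of a gene once, and the transcripts in use may be shorter. Orders between genes depend on this length, and Pcna-ps1 and Pcna-ps2 could share reads with Pcna. Pcna stood at 125 ± 12.9 in NPC_KD and 100.1 ± 22.3 in NPC_Ctrl, and Rrm2 at 131 ± 13.0 in NPC_KD and 83.3 ± 21.1 in NPC_Ctrl (SD, n = 3 each). Within libraries the order turned: Rrm2 was above Pcna in 3 of 3 NPC_KD libraries, at 142, 134.9 and 117 against 139.6, 121 and 115 CPM per kb, and Pcna was above Rrm2 in 3 of 3 NPC_Ctrl libraries, at 124, 97.3 and 79.2 against 105, 82.1 and 62.8 CPM per kb. Mcm7 (45.1 ± 9.45), Dnmt1 (38.1 ± 8.40), Mcm4 (37.7 ± 8.41) and Uhrf1 (36.4 ± 10.3) came next in NPC_Ctrl and overlapped each other. In cortex_Ctrl the order differed: Pcna led at 35.6 ± 1.78, then Dnmt1 at 22.4 ± 0.31 and Mcm7 at 17.9 ± 0.83, while Rrm2 stood at 14.5 ± 1.83 and Uhrf1 at 4.57 ± 0.49.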

How the data were processed

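Per the submitters' processing notes, reads of the 12 libraries were aligned with HISAT2 (version not stated) to mm10. The deposited table holds raw read counts per gene, made by the authors, with whole numbers and a different total in each library. The program that counted reads, its annotation and its strand setting were not given in the sources used here. Gene positions and exon lengths came from GENCODE release M21 for that build, where 34076 of the 34102 identifiers were found.

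Counts were scaled by TMM and filtered by filterByExpr in each comparison, and each comparison used edgeR 4.0.16 (R 4.3.3), quasi-likelihood test, on 6 libraries, with Benjamini-Hochberg adjustment over all genes tested and a threshold of 0.05. The difference between the systems was the interaction contrast in 1 fit of 12 libraries. DESeq2 1.42.0 was an alternative. Log2 fold changes carry their standard error, and intervals are 95%. Figures were drawn with matplotlib 3.10.9.

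Replicate numbers were checked as pairs. In progenitors the residuals of same-numbered libraries correlated at 0.48, 0.499 and 0.444, other combinations at -0.344 to -0.0838, and Ddx3y, a Y-linked gene, was 92.5 CPM in NPC_KD and 86.3 CPM in NPC_Ctrl replicate 3 and at most 0.297 CPM in the others. The replicate number was therefore a block in progenitors. In cortex the correlations were 0.0219, -0.164 and -0.0209, and no block was used. Biological coefficients of variation in progenitors were 0.0569 with the block and 0.145 without.

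The members and the gene and marker lists were chosen with earlier results of these data known. All 49 members were counted by role. In each comparison the 8 called members with the largest change in each direction were named, or the 4 with the smallest unadjusted p where fewer than 4 were called. Mcm2, Pcna, Ccne1, Cdc6, Rrm2, Mcm6 and Pola1 were named throughout, and within each role the largest and smallest change in progenitors. Other members are given in brief to account for the whole set. Of other lists up to 3 called genes with the largest change were named. Rfc3, E2f2, E2f4, E2f6, Gins3, Olig1 and Olig2 were singled out after their values were seen. So were the pair Pcna and Rrm2 in single libraries and the members whose groups did not overlap. The tests were run on simulated counts with planted changes and a pair effect drawn separately for each gene. A replicate order shared by many genes was not simulated, so this is no check of the calls that rest on the block.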

Additional observations from a re-analysis of the deposited data

Results flagged for a closer look

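The 12 genes below were flagged because their effect in progenitors (NPC_KD against NPC_Ctrl) and in cortex (cortex_cKO against cortex_Ctrl) differed by the interaction contrast of edgeR with an adjusted p under 0.05. Each value is the log2 fold change in progenitors minus that in cortex. Among polymerase and primase genes, Pola1 stood at 0.98 and Prim1 at 0.61. Among genes of nucleotide supply, Rrm2 stood at 0.98, Tyms at 0.73 and Rrm1 at 0.52. Among helicase subunits, Mcm6 stood at 0.65, Mcm5 at 0.58 and Mcm2 at 0.53. Clspn of the replication checkpoint stood at 0.73, Uhrf1 and Dnmt1 of DNA methylation at 0.72 and 0.38, and the clamp gene Pcna at 0.45.

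For Pola1, Rrm2, Tyms and Mcm6 the cortex value itself was below 0 with an unadjusted p under 0.05 in edgeR, which called none of them there. These were 4 of the 48 members tested in cortex, against 5.53% of all genes. DESeq2 called Pola1 and Mcm6 lower in cortex (adjusted p = 0.0135 and 0.0446), against 1.39% of all genes. The cortex value is part of the contrast that flagged these genes, so it is no separate evidence for them. For Prim1 the progenitor value was 0.60 ± 0.07 and the cortex value 0.0015 ± 0.09. Srsf10 itself gave -0.07 (95% interval -0.29 to 0.16) on the same contrast. Cultured progenitors and tissue differ in cell makeup, and the part of that in these differences was not tested.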

How the results depend on the processing

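Members called higher in progenitors numbered 44, and 44, 44 and 42 with RLE size factors, no filter on low counts and DESeq2. Without the replicate block the number was 0, in all 6 libraries and with each left out in turn (0 to 0). It was 6 with DESeq2 and no block (388 of all genes), 26 in 1 fit of all libraries with the block (763 of all genes), 18 when a change of at least 1.2-fold was asked for (443 of all genes), and 28 to 44 with each pair left out. In cortex DESeq2 called 2 lower, and edgeR called 0 under every alternative run, the block, sex, and removal of the Ttr-rich libraries among them. The difference between systems was called for 12 members, 1 without the block and 4 to 14 with each library left out. Control progenitors against control cortex gave 43, and 41 to 46 with each library left out. Shares of all genes are not given for the ranges with a pair or library left out.

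Among the genes named by rule, signs turned for 4 values near 0. Gins4 in progenitors (-0.02) ran from -0.0753 to 0.0454 with each pair left out, and with no block was 0.0752, 0.00065, 0.0150 and 0.0427 without NPC_Ctrl replicate 1, NPC_Ctrl replicate 2, NPC_KD replicate 2 and NPC_KD replicate 3. Rfc5 (-0.03) ran from -0.105 to 0.0423, and with no block was 0.126, 0.0125 and 0.0550 without NPC_Ctrl replicate 1, NPC_KD replicate 2 and NPC_KD replicate 3. In cortex Mcm2 (-0.04) ran from -0.108 to 0.0325 with each library left out and Ccne1 (0.05) from -0.143 to 0.2145, and Ccne1 was -0.0436 with sex as a covariate. The cause of these changes was not tested. Low counts limit Cdc45, E2f2, Pole2 and Orc1 in cortex.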
